A study of Mus musculus with 3 samples.

Results

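Chemokine genes and chemokine receptor genes were read in RNA of lymphatic endothelial cells sorted from the large intestine of C57BL/6 mice. A gene was included when its symbol in the table was that of a CC, CXC, XC or CX3C chemokine, of one of their receptors or of an atypical receptor, with Ccl19, Ccr7, Ackr1, Ackr3 and Ackr4 left out. Chemokine genes under other symbols, such as Pf4 and Ppbp, were therefore not included. This gave 53 genes of 24091, namely 35 ligand genes and 18 receptor genes. The cells had been selected by surface markers that include CD31, podoplanin and LYVE1, and all 3 libraries belong to 1 group. They are called replicates 1, 2 and 3. The labels do not say that the libraries came from separate animals, so their spread, and any p-value from it, may be technical. With 1 group there is no comparison between conditions, and no library of unsorted tissue was used here. Values are in TPM, a transcript abundance scaled to the same total in each library and corrected for transcript length, and are given as mean ± SD over the 3 libraries (n = 3) unless single libraries are named.

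Chemokines are small secreted or membrane-bound proteins that steer leukocytes by binding receptors coupled to G proteins. They are classed by the spacing of their first cysteines, as the names CC, CXC, XC and CX3C say. Atypical receptors such as ACKR2 take up chemokines without the usual signal and so lower their local amount. In the gut, epithelium, vessels and stroma make ligands, while most signalling receptors are carried by leukocytes. Lymphatic endothelium is best known for CCL21, the ligand of CCR7, and for ACKR2.

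The sorted cell type was checked against its markers. All 6 lymphatic markers in the table (Lyve1, Pdpn, Flt4, Mmrn1, Reln and Prox1) reached a TPM of 1 in every library, but the 8 epithelial markers summed to 12861 to 14546, against 808 to 1524 for the lymphatic ones. Replicate 3 stood apart. Its lymphatic sum was 0.543 times the mean of replicates 1 and 2, and its fibroblast and macrophage sums were 2.93 and 2.66 times that mean. A level below is therefore that of a mixed RNA pool and does not place a transcript in lymphatic cells.

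Ccl6 (Entrez 20305, chromosome 11, 83587886 to 83593087 of GRCm38.p6) was the most abundant member, and Ccl9, the next member along the chromosome, was far lower. Both encode CC chemokines that act on CCR1. Their promoters, from 250 bases before to 50 after the annotated start in RefSeq (GRCm38.p6), are printed because the pair share a stretch of sequence but not a level. The Ccl6 promoter is chr11:83593038-83593337 and the Ccl9 promoter chr11:83578587-83578886, both on the minus strand. Capitals mark the stretch that a local alignment matched, with 58 of 67 aligned bases identical (86.6%). Gaps are left out of this share, and the capitals of Ccl6 include bases that have no partner in Ccl9. The same alignment of the Ccl6 and Ccl8 promoters matched 13 of 17 aligned bases (76.5%).
Ccl6: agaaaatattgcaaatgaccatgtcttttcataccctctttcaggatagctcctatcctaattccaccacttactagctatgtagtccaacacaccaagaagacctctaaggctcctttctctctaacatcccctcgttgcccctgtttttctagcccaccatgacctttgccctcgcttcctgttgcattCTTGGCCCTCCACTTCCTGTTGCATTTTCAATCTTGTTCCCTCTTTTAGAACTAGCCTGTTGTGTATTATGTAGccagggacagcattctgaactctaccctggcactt
Ccl9: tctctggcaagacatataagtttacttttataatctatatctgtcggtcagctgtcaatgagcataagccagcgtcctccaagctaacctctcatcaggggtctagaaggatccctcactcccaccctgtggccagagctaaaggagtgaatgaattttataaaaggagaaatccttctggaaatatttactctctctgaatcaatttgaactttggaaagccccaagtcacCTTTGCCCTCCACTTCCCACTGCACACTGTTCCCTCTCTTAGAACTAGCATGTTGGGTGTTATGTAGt

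The stretch ran from -59 to 15 around the start of Ccl6 and from -18 to 49 around that of Ccl9, so it lies at different distances from the annotated starts. The Ccl9 promoter holds the letters TATAAA and the Ccl6 promoter does not. TATAAA, the core of the TATA box, was searched on both strands and at any distance from the start. It stood in 13.6% of 32851 promoters of this length and in 12 of the 46 promoters found for 39 members (26.1%). A match of letters is a description and not a site of binding.

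Promoters of 5 further members are printed. Those of Ccl8 (chr11:82114935-82115234, plus strand) and Cx3cl1 (chr8:94771930-94772229, plus strand) belong to abundant ligands, and TATAAA is in capitals there. TATAAA began at -32 in Ccl8 and at -6 in Cx3cl1. Those of Cxcl1 (chr5:90890995-90891294), Cxcl2 (chr5:90903649-90903948) and Cxcl3 (chr5:90785851-90786150), all on the plus strand, belong to neutrophil attractants that were low here and share the run GGGAATTTCCC, given in capitals. This is the longest run, 11 bases, that the 3 promoters have in common before the start, and it has the form of the kappaB element known from chemokine genes. Searched on both strands, it stood in 14 of 32851 promoters (0.0426%), and among the 46 member promoters in these 3 (6.52%), which it was chosen from. It overlaps no TATAAA in them. It began at -71 in Cxcl1, -97 in Cxcl2 and -73 in Cxcl3.
Ccl8: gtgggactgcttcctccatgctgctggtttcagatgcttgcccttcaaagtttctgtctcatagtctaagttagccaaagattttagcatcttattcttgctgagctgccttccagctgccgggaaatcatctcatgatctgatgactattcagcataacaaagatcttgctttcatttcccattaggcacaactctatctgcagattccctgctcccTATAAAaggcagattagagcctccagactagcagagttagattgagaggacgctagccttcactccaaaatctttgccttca
Cx3cl1: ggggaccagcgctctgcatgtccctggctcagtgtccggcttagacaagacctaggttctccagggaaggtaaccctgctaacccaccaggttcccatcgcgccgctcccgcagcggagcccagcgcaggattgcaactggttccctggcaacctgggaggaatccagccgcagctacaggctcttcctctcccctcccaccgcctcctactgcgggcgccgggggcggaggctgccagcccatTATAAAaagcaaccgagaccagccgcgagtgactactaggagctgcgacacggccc
Cxcl1: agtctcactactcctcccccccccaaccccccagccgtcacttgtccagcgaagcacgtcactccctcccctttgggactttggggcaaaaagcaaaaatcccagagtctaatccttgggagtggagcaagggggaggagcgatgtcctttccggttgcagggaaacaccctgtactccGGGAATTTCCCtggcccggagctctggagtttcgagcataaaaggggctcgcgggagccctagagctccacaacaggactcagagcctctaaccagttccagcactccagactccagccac
Cxcl2: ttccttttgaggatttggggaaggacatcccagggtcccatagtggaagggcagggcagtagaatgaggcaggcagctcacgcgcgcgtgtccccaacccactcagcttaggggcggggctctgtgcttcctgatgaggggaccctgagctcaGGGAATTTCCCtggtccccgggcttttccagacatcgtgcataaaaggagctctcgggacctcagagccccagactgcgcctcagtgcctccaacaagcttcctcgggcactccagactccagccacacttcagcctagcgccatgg
Cxcl3: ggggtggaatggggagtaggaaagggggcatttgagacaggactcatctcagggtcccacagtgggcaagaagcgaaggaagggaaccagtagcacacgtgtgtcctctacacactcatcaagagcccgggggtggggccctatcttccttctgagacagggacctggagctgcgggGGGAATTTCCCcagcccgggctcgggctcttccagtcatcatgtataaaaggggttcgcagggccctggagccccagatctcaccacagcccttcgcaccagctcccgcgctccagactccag

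These sequences are set beside the levels that follow, in which Cxcl1, Cxcl2 and Cxcl3 all stayed below a mean TPM of 1. No conclusion on the factor that binds the element can be drawn from a match.

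Over all members, 22 of 53 reached a TPM of 1 in every library (41.5%), against 53.4% of all genes in the table. By role, 18 of 35 ligand genes (51.4%) and 4 of 18 receptor genes (22.2%) did so. The median member stood at 1.08 ± 0.227, the median ligand at 2.24 ± 0.225 and the median receptor at 0.461 ± 0.225, against 2.41 ± 0.376 for all genes. The ligand share lay near that of all genes and says nothing particular of the ligands. The receptor share and the receptor median lay below those of all genes, and the cause was not tested. The 53 genes together made up 0.0760%, 0.0629% and 0.0850% of all TPM in replicates 1, 2 and 3.

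**Figure D1:**
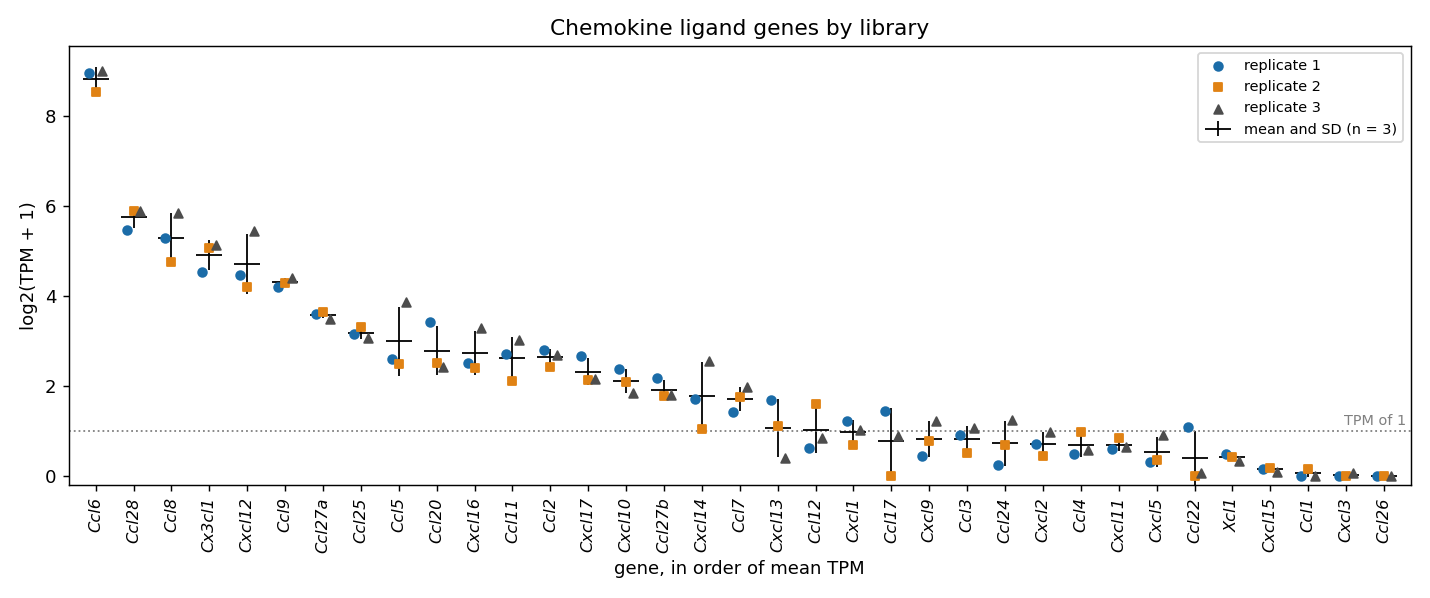
Level of each of the 35 chemokine ligand genes as log2(TPM + 1), in order of mean TPM. Points are the 3 libraries, the black bars the mean and SD, and the dotted line a TPM of 1. Ccl6 stands above the other ligands shown in all 3 libraries, and Ccl26 lies at 0 in each.

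Ccl6 had 500.8, 370.8 and 515.9 TPM in replicates 1, 2 and 3. The lowest of these values lay far above the highest value of any other member, which was 58.2. Ccl6 thus averaged 462 ± 79.8 and took 65.9%, 59.0% and 60.7% of the summed TPM of all 53 genes. It stood above 97.8%, 97.1% and 97.9% of the genes at a TPM of 1 or more in every library. Its spread between libraries was not above that of 95% of genes of like level. No annotated exon of another gene overlaps it in GENCODE M21.

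Ccl6 is known from myeloid cells, so macrophage markers were set beside it. The macrophage and dendritic cell list summed to 239.8, 163.9 and 538 in replicates 1, 2 and 3, with 7 of 8 genes at or above a TPM of 1 throughout. Ccl6 in replicate 3 was 1.18 times the mean of replicates 1 and 2, where this list was 2.66 times, the epithelial list 1.10 times and the lymphatic list 0.543 times. The ratio of Ccl6 to the macrophage gene Lyz2 was 5.05, 6.41 and 2.62, and that to the epithelial gene Epcam 0.455, 0.318 and 0.444. These ratios were chosen after the values were seen, and the part of any cell type in the level of Ccl6 was not tested.

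Ccl9 (chromosome 11, 83572917 to 83578636) had 17.5, 18.7 and 20.1 TPM, the 3 libraries lying close together. Ccl6 was 28.6, 19.8 and 25.6 times Ccl9 in the same libraries. Ccl5, a chemokine of T cells and NK cells in the same block of genes, had 5.07, 4.62 and 13.7 TPM. Its value in replicate 3 was 2.82 times the mean of the others, and the T and NK cell marker list was 2.02 times that mean there. Ccl3 (0.791 ± 0.348) and Ccl4 (0.618 ± 0.307), further CC chemokines of the block, stayed near or below 1. Mean levels in this block of 5 neighbouring genes thus ran from 0.618 to 462.

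The first block of CC genes on chromosome 11 holds the monocyte and eosinophil attractants. Ccl8 (chromosome 11, 82115185 to 82116799), which in mice acts on CCR8, had 38.0, 25.9 and 56.6 TPM and was the highest of these 6 genes in every library. Its mean of 40.2 ± 15.4 compares with 5.33 ± 1.94 for the eosinophil attractant Ccl11, 5.26 ± 0.80 for the monocyte attractant Ccl2 and 2.31 ± 0.612 for Ccl7. Ccl12 had 0.536, 2.02 and 0.779 TPM, so its mean of 1.11 ± 0.798 rests on replicate 2 and was 0.657 without it. Ccl1 was listed at 0 in 2 libraries and averaged 0.0370 ± 0.0641. Ccl8 was 6.40, 5.92 and 10.3 times Ccl2 in replicates 1, 2 and 3. Both Ccl8 and Ccl11 were highest in replicate 3, whereas Ccl2 was highest in replicate 1.

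**Figure D2:**
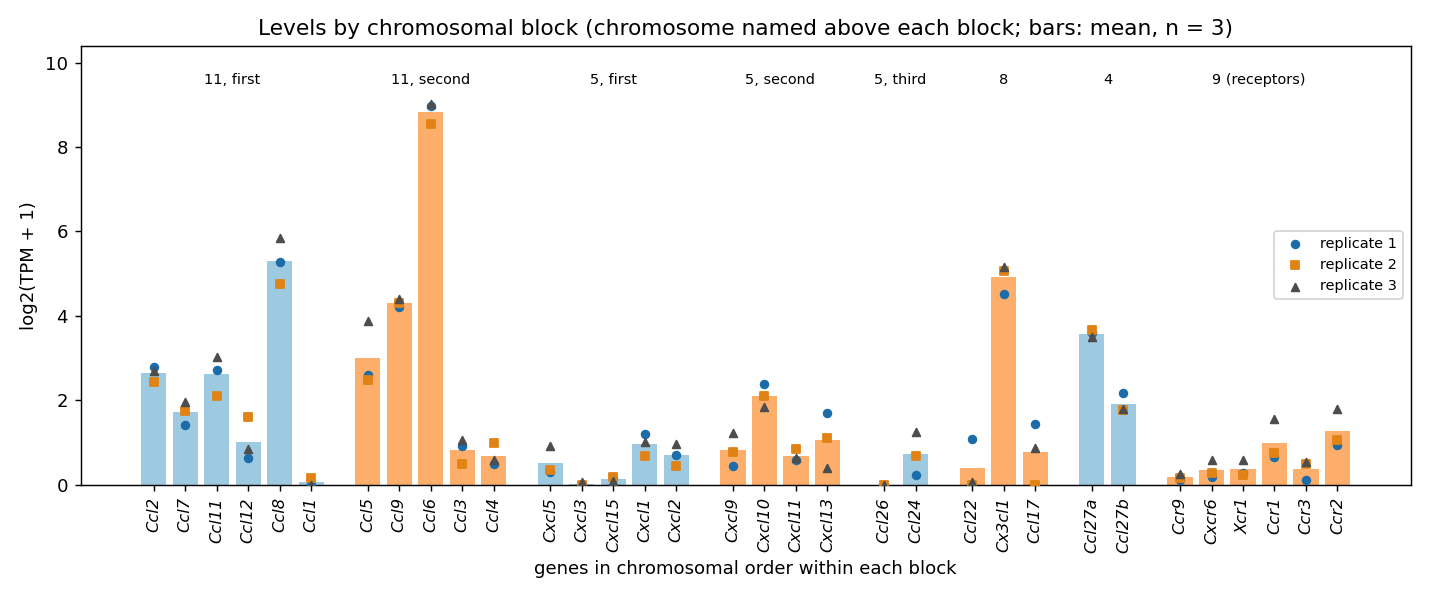
Level of members in chromosomal blocks, as log2(TPM + 1), with genes in chromosomal order and the chromosome named above each block. Bars are means and points the 3 libraries. Ccl6 and Ccl8 rise above their neighbours in all libraries, and the first block on chromosome 5 stays low.

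Ligands known from mucosal tissue were taken as a second group, drawn up by hand. All 5 of them reached a TPM of 1 in every library, against 53.4% of all genes. With 5 chosen genes, this share says nothing particular of mucosal ligands. Ccl28 (chromosome 13, 119623819 to 119654359), which draws cells that secrete IgA through CCR10, had 43.4, 58.1 and 58.2 TPM and was the second most abundant member. Ccl25, the ligand of the gut homing receptor CCR9, had 7.95, 8.86 and 7.30 TPM, a narrow range. Ccl20, which attracts CCR6 cells to lymphoid follicles, had 9.74 TPM in replicate 1 but 4.70 and 4.36 in replicates 2 and 3. Cxcl17 averaged 4.06 ± 1.14 and Cxcl14 2.74 ± 1.95, Cxcl14 being widest, with 2.27, 1.07 and 4.87 TPM. An exon of Ccl25 overlaps one of Elavl1 on the opposite strand, and whether the counting used strand is not given in the sources used here.

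Replicate 3 over the mean of replicates 1 and 2 was 2.92 for Cxcl14, 1.15 for Ccl28, 0.869 for Ccl25, 0.785 for Cxcl17 and 0.603 for Ccl20, so the 5 genes did not move together. The epithelial marker list gave 1.10 there, with all 8 of its genes above a TPM of 1 in every library. The fibroblast list gave 2.93. Ccl28 over Epcam was 0.0395, 0.0499 and 0.0501. The part of epithelial or fibroblast RNA in these levels was not tested.

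The CCR10 ligand family also includes Ccl27a, a chemokine of skin keratinocytes, at 11.1, 11.6 and 10.3 TPM, and its copy Ccl27b at 3.50, 2.43 and 2.47. These values are uncertain, since reads could have been split between the copies, and an exon of Ccl27a overlaps one of Il11ra1 on the opposite strand.

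Vessel and stromal ligands came next. Cx3cl1 (chromosome 8, 94772180 to 94782427), the membrane-bound fractalkine of endothelium and epithelium, had 22.02, 32.6 and 34.4 TPM. Cxcl12 (chromosome 6, 117168535 to 117181368), the ligand of CXCR4 that fibroblasts and endothelium make, had 21.2, 17.5 and 43.0 TPM. Replicate 3 was thus the highest for both, by 1.26 and 2.22 times the mean of the other libraries. The fibroblast markers summed to 182, 124 and 448 in the same order, with all 7 highest in replicate 3, and Cxcl12 over the fibroblast gene Dcn was 0.297, 0.363 and 0.277. This ratio was chosen after the values were seen, and the part of fibroblast RNA in Cxcl12 was not tested. The neighbours of Cx3cl1, Ccl17 and Ccl22, whose products act on CCR4, had means of 0.849 ± 0.857 and 0.385 ± 0.626. Both were above 1 in replicate 1 and listed at 0 in replicate 2.

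Cxcl16, a membrane-bound ligand of CXCR6, had 4.69, 4.25 and 8.81 TPM, again highest in replicate 3. Its exons overlap those of Zmynd15 on the opposite strand. Among the interferon-induced ligands of CXCR3, Cxcl10 had 4.22, 3.27 and 2.57 TPM, while Cxcl9 (0.801 ± 0.498) and Cxcl11 (0.614 ± 0.148) stayed below a mean of 1. Cxcl10 overlaps exons of Art3 on the opposite strand. Cxcl10 was lowest in replicate 3, the library in which Cxcl9 was highest (0.357, 0.706 and 1.34). Cxcl13, which draws B cells to follicles, had 2.23, 1.15 and 0.315 TPM, and was lowest in the library in which the B cell markers were highest (4.83, 5.78 and 19.98).

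The ligands of CXCR2, which attract neutrophils, were low throughout. Cxcl1 had 1.30, 0.599 and 1.01 TPM, and means were 0.642 ± 0.295 for Cxcl2, 0.460 ± 0.361 for Cxcl5 and 0.0154 ± 0.0267 for Cxcl3. Not 1 of these 4 genes passed a TPM of 1 in every library, whereas 53.4% of all genes did. With 4 chosen genes, this share says nothing particular of CXCR2 ligands. By the estimate of depth given under the methods, Cxcl1 rested on about 71, 29 and 44 fragments.

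The order of the members by mean TPM is firm only in places. Of the 26 neighbouring pairs among the 27 members of mean TPM 1 or more, 23 had ranges that overlapped. The ranges did not overlap between Ccl6 and Ccl28, between Ccl9 and Ccl27a, or between Ccl27a and Ccl25. Although their ranges overlapped, Ccl28 exceeded Ccl8, Ccl2 exceeded Cxcl17, Cxcl17 exceeded Cxcl10 and Cxcr2 exceeded Ccr10 within each of the 3 libraries. Below these 27 members, 26 had a mean under 1, of which 15 were ligands (up to 0.971) and 11 receptors (up to 0.577). Among the 53, 20 stayed below a TPM of 1 in all 3 libraries, against 9871 of all 24091 genes. At least 1 library listed 7 members at 0, against 7204 of all genes. Ccl26 was listed at 0 in all 3, as were 5024 of all genes. These counts do not set the members apart as unusually silent.

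Ackr2 (Entrez 59289, chromosome 9, 121898355 to 121911075), the scavenging receptor of inflammatory CC chemokines, was the most abundant receptor. It had 31.6, 29.4 and 16.3 TPM and took 79.0%, 69.3% and 42.5% of the summed TPM of the 18 receptors. Replicate 3 was low, at 0.534 times the mean of replicates 1 and 2. The lymphatic markers summed to 1453, 1524 and 808 in the same libraries, each of the 6 genes being lowest in replicate 3. Ackr2 over Lyve1 was 0.0580, 0.0482 and 0.0520. Ackr2 over Pecam1, which blood endothelium also expresses, was 0.269, 0.270 and 0.159. These ratios were chosen after the values were seen. In bulk RNA, fewer cells of a type and less RNA per cell cannot be told apart, and the part of lymphatic content in Ackr2 was not tested.

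**Figure D3:**
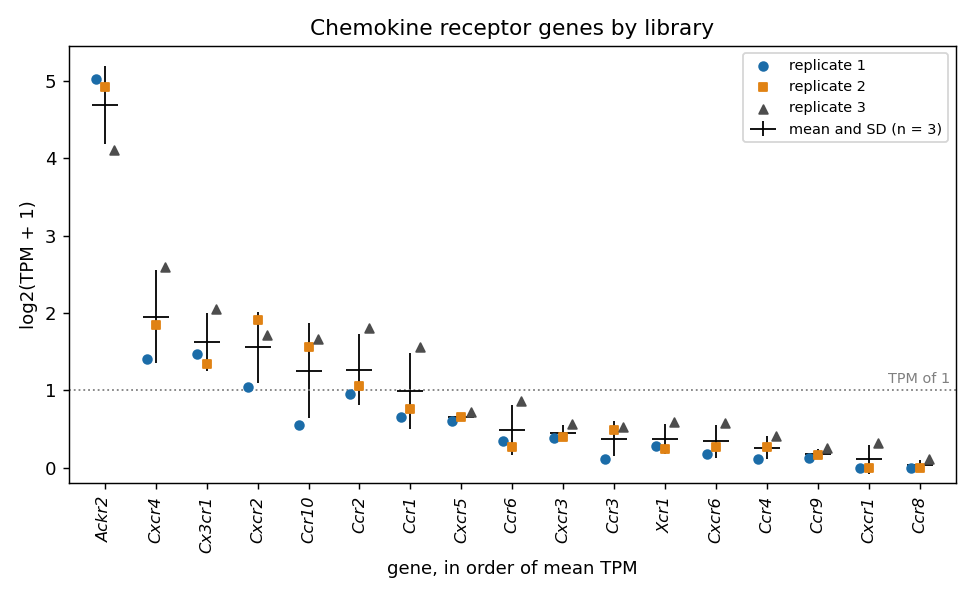
Level of 17 of the 18 receptor genes as log2(TPM + 1), in order of mean TPM. Points are the 3 libraries, black bars the mean and SD, and the dotted line a TPM of 1. Ackr2 stands above the rest and is lowest in replicate 3, while Cxcr4, Cx3cr1, Ccr2 and Ccr1 are highest there.

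The other 17 receptors summed to 8.42, 13.0 and 22.1 TPM in replicates 1, 2 and 3. Cxcr4, the CXCL12 receptor, had 1.64, 2.60 and 5.04 TPM and was the highest of them on average. Cx3cr1, a fractalkine receptor of macrophages, had 1.77, 1.54 and 3.14, and the neutrophil receptor gene Cxcr2 had 1.06, 2.77 and 2.28. Those 3 and Ackr2 were the 4 receptor genes at a TPM of 1 or more in every library. Ccr10 (0.464, 1.94 and 2.16), the monocyte receptor gene Ccr2 (0.928, 1.08 and 2.48) and Ccr1 (0.574, 0.688 and 1.95) had means above 1 but missed it in at least 1 library.

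Among the low receptors, Cxcr5 averaged 0.577 ± 0.0605 and Ccr6 0.430 ± 0.336, and the gut homing receptor gene Ccr9 stood at 0.132 ± 0.0524. Ccr8, the receptor of CCL8, averaged 0.0264 ± 0.0457 and was listed at 0 in replicates 1 and 2. An exon of Cxcr5 overlaps one of Bcl9l on the opposite strand, and exons of Ccr9 overlap those of Slc6a20a.

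Ligands and their receptors were then compared within each library for 16 textbook pairs. The ligand was higher than the receptor in all 3 libraries for 11 pairs, and no pair had the receptor higher in all 3. Differences of log2(TPM + 1), ligand minus receptor, averaged 5.26 ± 0.49 for Ccl8 and Ccr8, 4.49 ± 0.38 for Ccl28 and Ccr10 and 3.29 ± 0.37 for Cx3cl1 and Cx3cr1. They were 2.99 ± 0.17 for Ccl25 and Ccr9, 2.76 ± 0.36 for Cxcl12 and Cxcr4 and 2.39 ± 0.30 for Cxcl16 and Cxcr6. Smaller differences were those of Ccl20 and Ccr6 (2.29 ± 0.76), Ccl11 and Ccr3 (2.24 ± 0.54), Cxcl10 and Cxcr3 (1.65 ± 0.37) and Ccl2 and Ccr2 (1.37 ± 0.48).

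For each of these 11 pairs the exact two-sided sign-flip permutation test gave p = 0.25 (0.364 after Benjamini-Hochberg adjustment over 16 pairs), and 3 libraries cannot give a smaller one. In the other 5 pairs the sign differed between libraries. The neutrophil pair Cxcl1 and Cxcr2 averaged -0.59 ± 0.71, with 0.16, -1.24 and -0.71 in replicates 1, 2 and 3. Ccl3 minus Ccr1 averaged -0.17 ± 0.38, and Cxcl13 minus Cxcr5 0.41 ± 0.70, each with an exact permutation p of 0.5. Ccl22 minus Ccr4 (0.12 ± 0.73) and Xcl1 minus Xcr1 (0.039 ± 0.268) gave an exact permutation p of 1.

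**Figure D4:**
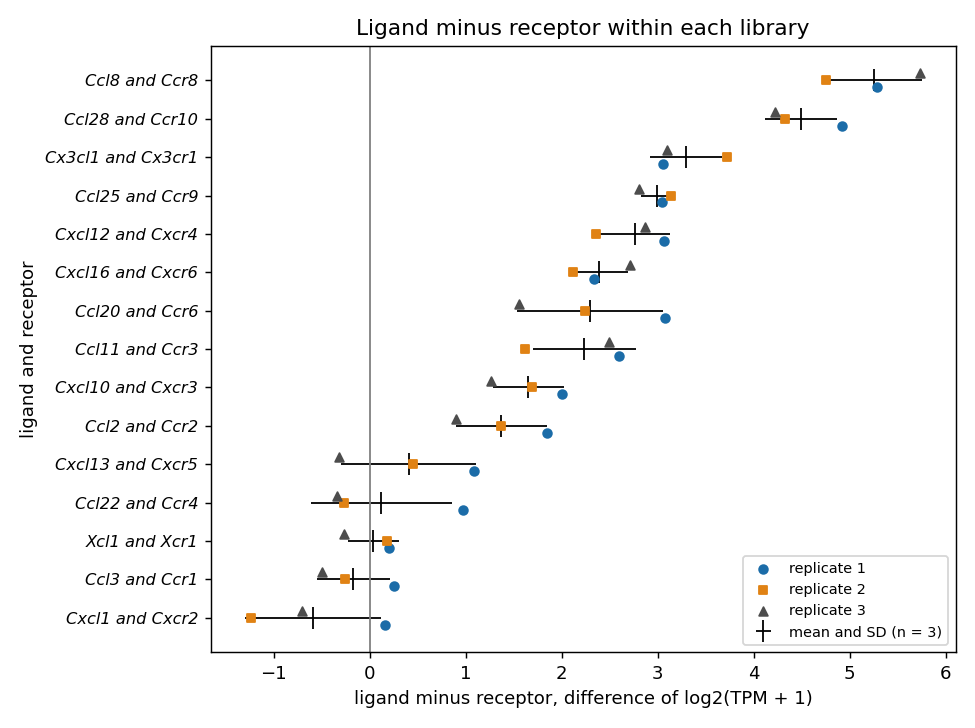
Difference of log2(TPM + 1), ligand minus receptor, for 15 of the 16 pairs. Points are the 3 libraries and black bars the mean and SD, with 0 marking equal levels. In the upper 10 pairs every point lies to the right of 0, and in the lower 5 the points fall on both sides.

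The libraries were compared with one another gene by gene. The SD of log2(TPM + 1) over the libraries had a median of 0.46 among the 27 members of mean TPM 1 or more, against 0.25 for the bins of like level in which they lie and 0.19 for all 13606 genes of that level. Genes whose SD exceeded the percentile 95 of their bin were called variable, which holds for 5.0% of all genes by construction. It held for 3 of the 27 members (11.1%), Cxcl12 (SD 0.66), Ccl5 (0.77) and Ccl8 (0.55). Ackr2, at 0.50, lay just under the limit of its bin. The count was 7 without replicate 1 and 1 without replicate 3.

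Replicate 3 carried the highest value of 16 of the 27 members (59.3%), against 41.3% of all genes of mean TPM 1 or more. In 11 members (40.7%) it was at least 1.5 times the mean of the others, against 8.81% of all genes. That fold was chosen after the values were seen. The shares over all genes were not matched for level, and genes of the members' level had the wider spread given above. The 11 were Ccr1 (3.09 times), Cxcl14 (2.92), Ccl5 (2.82), Ccr2 (2.47), Cxcr4 (2.37), Cxcl12 (2.22), Cxcl16 (1.97), Cx3cr1 (1.90), Ccr10 (1.80), Ccl8 (1.77) and Ccl11 (1.62). Replicate 3 was lowest for 6 members (22.2%, against 22.4% of all genes), among them Cxcl13 (0.186 times), Ackr2 (0.534), Ccl20 (0.603) and Cxcl10 (0.686). Its ratio to the mean of replicates 1 and 2 had a median of 1.19 over the 27 members, 1.13 over the 20 ligands and 1.90 over the 7 receptors, against 1.07 over all 13606 genes.

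**Figure D5:**
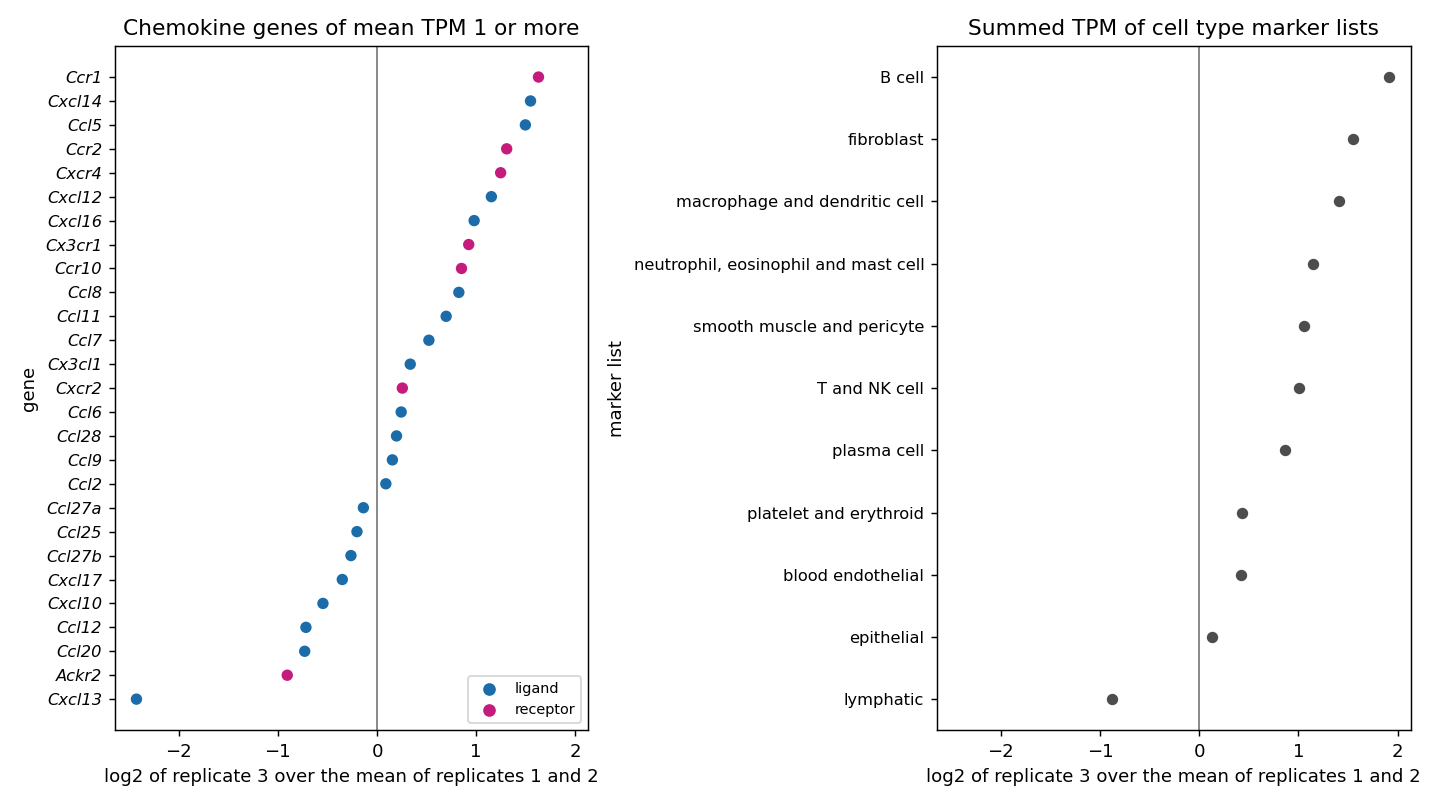
Replicate 3 over the mean of replicates 1 and 2, as log2, for the 27 members of mean TPM 1 or more (left, ligands in blue and receptors in pink) and for the summed TPM of 11 cell type marker lists (right). Ackr2 and the lymphatic list lie to the left of 0, and Cxcl12, Ccl5, Cxcr4 and the fibroblast and immune lists to the right.

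Marker lists of other cells moved in the same library. The B cell list was 3.77 times the mean of the others in replicate 3, the smooth muscle and pericyte list 2.08 times and the plasma cell list 1.82 times. All 8 macrophage, all 7 fibroblast and all 4 B cell genes were highest there. The T and NK cell markers summed to 7.17, 6.43 and 13.7, with 6 of 8 genes highest in replicate 3 but not Gzmb and Klrb1c. The granulocyte and mast cell markers summed to 1.86, 3.29 and 5.71. Not 1 of the 6 granulocyte and mast cell genes passed the minimum. S100a8, S100a9 and Csf3r were highest in replicate 3, Siglecf was lowest there (0.375 times the mean of the others), and Mcpt4 and Cpa3 were listed at 0 there. The blood endothelial markers summed to 263, 209 and 317 and did not move together. Flt1, Plvap, Vwf, Aplnr, Ackr1 and Selp were 2.52 to 5.68 times the mean of the others in replicate 3, Emcn was 0.568 times, and Sele was listed at 0 in replicates 2 and 3. The part of these cell types in the members' values was not tested.

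Other genes of the chemokine system were read from a list chosen with earlier results known, and 44 of its 48 genes in the table (91.7%) reached a TPM of 1 in every library, against 53.4% of all genes. Chemokines are held on the cell surface by heparan sulfate. All 9 genes listed for its core proteins and synthesis passed, led by the syndecan genes Sdc4 (142 ± 12.9) and Sdc1 (127 ± 15.4). The list is a selection and does not hold every such gene. Proteases that cut chemokines or release the membrane-bound ones included Adam10 (49.5 ± 4.88) and Adam17 (14.1, 16.9 and 16.4 in the 3 libraries), and 4 of the 5 passed. Of the signalling genes 11 of 12 passed, led by the G protein genes Gnai2 (249 ± 4.0) and Gnb1 (198 ± 10.2).

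Among regulators and signals that induce chemokines 14 of 15 passed, with Nfkbia, the inhibitor of NF-kappaB, at 142 ± 17.0 and the interferon gamma receptor gene Ifngr1 at 129 ± 7.90. Ifng was listed at 0 in all 3 libraries. Of related binding proteins 6 of 7 passed, with the MIF receptor gene Cd74 at 279 ± 129.5. That list also holds Pf4 and Ppbp, which encode the CXC chemokines CXCL4 and CXCL7 and were not members because the rule went by symbol. Pf4 had 26.3, 15.1 and 52.1 TPM, a mean of 31.2 ± 19.0 that lies above the means of Cx3cl1 and Cxcl12, and Ppbp averaged 0.178 ± 0.0944. Gpr182, an atypical chemokine receptor of endothelium, was chosen after its values were seen. It had 28.9, 25.9 and 15.97 TPM and was lowest in replicate 3, as Ackr2 was.

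The genes kept out by the rule give the scale. Gm1987, a CCL21 copy, had 10542, 8096 and 4258 TPM, and Gm13304 had 3186, 2420 and 1344, above Ccl6 in each library and uncertain singly because reads may split between copies. Ackr3 had 157, 162 and 102 TPM, above Ackr2 in each library. Ackr1 averaged 7.43 ± 6.90, Ccl19 4.74 ± 1.11, Ackr4 3.05 ± 0.691 and Ccr7 0.435 ± 0.587. Ackr4 and Ccl19 therefore lay in the range of the middle members, and Ccr7 in that of the low receptors.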

How the data were processed

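Each of the 3 libraries came as 1 deposited table of 24091 genes with Entrez ID, symbol and TPM, as the file headers name the unit. The deposited TPM values add up to 999939, 999907 and 999896. Per the submitters' processing notes, HTSeq, Cell Ranger 6.0.1 and the build mm10 were used. How the authors computed TPM, and the annotation and strand setting used, are not given in the sources used here. All 53 members matched RefSeq genes of GRCm38.p6 by ID and symbol.

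The members, gene lists, pairs and tests were chosen with earlier results of these data known. A receptor gene and its pair entered the counts and tests but are not reported here or plotted. Every member of mean TPM 1 or more is named, with the 2 highest genes of each further list. A gene passed at a TPM of 1 in all 3 libraries. Spread and pair differences used log2(TPM + 1), which understates differences of low genes. Spread was compared in 20 bins of mean expression, and pairs by exact sign-flip permutation tests with Benjamini-Hochberg adjustment over 16 pairs. The spread call was tested on simulated data, and the permutation test and the adjustment on fixed values with known answers.

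TPM keeps no depth. Low values of 7003 genes with 1 RefSeq transcript fell on steps, with 62.0%, 64.0% and 63.7% within 0.15 of a whole number. Chance would give 30% for a step fixed beforehand, but the step was fitted to these same values. By this fit, 1 TPM over 1000 effective bases came to an estimated 32.5, 28.3 and 25.9 fragments in replicates 1, 2 and 3. Lengths were those of the longest GENCODE M21 transcript. Alternatives were other TPM minimums, pseudocounts, percentiles and scalings, and leaving out each replicate. The software was matplotlib 3.10.9, scipy 1.17.1, pandas 2.3.3 and numpy 2.4.6 on Python 3.11.15.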

Additional observations from a re-analysis of the deposited data

How the results depend on the processing

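The count of members at the TPM minimum was 22, from 23 to 28 with a minimum of 0.5, the mean, either other scaling or any library left out, and 9 with a minimum of 5. A lower minimum, the mean or fewer libraries could not lower this count, and a higher minimum could not raise it. The count of pairs with the ligand higher throughout was 11 to 13 in all alternatives, a range largely fixed in advance. Within a library, a pseudocount or a rescaling cannot change which gene is higher, and a library left out cannot lower the count. The 3 variable members became 7 at the percentile 90, 5 with a pseudocount of 0.1, 5 with median-of-ratios scaling and 1 to 7 with a replicate left out. The count of members highest in replicate 3 was 16 as reported, 14 with median-of-ratios scaling and 16 with the rescaled TPM. The share over all genes under those scalings was not computed. Replicate 3 was highest for 33 of 52 members without a filter on low values (42.6% of all genes) and for 9 of 14 at a mean TPM of 5 or more (38.8% of all genes). It reached 1.5 times the mean of the others for 10 of 27 members with median-of-ratios scaling (7.17% of all genes) and 13 of 31 with the rescaled TPM (8.99%), both added after seeing the data. Ccl22 minus Ccr4 reversed to -0.11 with a pseudocount of 0.1 and ran from -0.30 to 0.35 with a replicate left out, and Xcl1 minus Xcr1 ran from -0.044 to 0.19. The cause was not tested. Taking out Mir6236 and 87 ribosomal protein genes raised the median gene by 0.38 to 0.44 on the log2 scale, and with it 12 of 27 member means by more than 1 SD. No paired analysis was possible because the series holds 1 group. Members with few fragments, such as Ccl12 with about 6, 20 and 7, cannot be ranked at this depth.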

Other observations

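Proteins that act like chemokines but carry other names were looked up after the members' values were seen. Mif, a cytokine that binds CXCR2, CXCR4 and CD74, had 437, 391 and 382 TPM in replicates 1, 2 and 3, a range that overlaps that of Ccl6. Hmgb1, whose product binds CXCL12, averaged 240 ± 19.3. Rarres2, which encodes chemerin, had 39.4, 28.5 and 72.2 TPM and was highest in replicate 3, as Cxcl12 was. Among genes of the chemokine-like factor family, Cmtm6 averaged 68.7 ± 10.5, Cmtm4 36.9 ± 11.1, Cmtm3 26.6 ± 4.48, Cmtm7 25.4 ± 2.78, Cmtm8 17.9 ± 1.49 and Cklf 15.1 ± 0.67. Cmtm1, Cmtm2a, Cmtm2b and the receptor-like gene Ccr1l1 were listed at 0 in all 3 libraries.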
